A study of Homo sapiens with 5 samples.

Results

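Target genes of the transcription cofactor YAP and its DNA-binding partners, the TEAD proteins, were followed across 5 RNA-seq libraries of an established human astroglial line, SVG-10B1. The 10 genes, CTGF, CYR61, ANKRD1, TGFB2, CCDC80, MYOF, CRIM1, AMOTL2, AXL and F3, were taken by symbol from the 57905 genes that carry a count in the deposited tables, and all 10 were found. Where a symbol had several identifiers the one with most reads was used, which applied to CRIM1 only. The 2 wild-type libraries, replicates 1 and 2, came from cells the labels call clone 1. The edited cells were heterozygous for the R132H change in IDH1, with 1 allele changed and the other wild type, and came from 2 clones, clone 2 with 1 library and clone 6 with 2 libraries (replicates 1 and 2). All cells were grown in DMEM with fetal calf serum and no other agent is named. The design text states that expression profiles of wild-type and edited clones were compared. Every edited line is 1 clone and no unedited sister clone was analysed here, so the edit and the choice of clone cannot be told apart. Nothing in the labels says that replicates were grown separately, so every p-value below rests on the spread between these libraries alone, which may be technical.

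YAP and its relative TAZ (gene WWTR1) are cofactors without a DNA-binding domain of their own. When the kinases of the Hippo pathway are active they are phosphorylated and held in the cytoplasm, and otherwise they enter the nucleus and switch on genes through the TEAD proteins, often beside AP-1. Targets include secreted matrix proteins, membrane receptors and inhibitors that feed back on the pathway. IDH1 is the cytosolic isocitrate dehydrogenase, and its R132H form, frequent in glioma, makes the metabolite D-2-hydroxyglutarate.

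The TEAD proteins bind the core GGAATG, whose reverse complement is CATTCC, and promoters of 3 genes with the core at their only listed start are shown, among them CTGF and ANKRD1, the standard reporters of the pathway. RefSeq promoters (build GRCh38.p14) were matched for 8 of the 10 genes, with no entry for CYR61 or CRIM1, and the 250 bases before each annotated start were searched on both strands. Capitals mark the core, sequences run 5′ to 3′ on the strand of the gene and end at the base before the transcription start.
CTGF, chr6:131951373-131951622, minus strand: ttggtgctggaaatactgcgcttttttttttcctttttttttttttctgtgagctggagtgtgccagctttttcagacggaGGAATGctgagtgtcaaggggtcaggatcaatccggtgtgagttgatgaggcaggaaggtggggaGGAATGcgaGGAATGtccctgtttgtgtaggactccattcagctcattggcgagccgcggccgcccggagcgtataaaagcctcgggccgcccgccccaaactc
ANKRD1, chr10:90921088-90921337, minus strand: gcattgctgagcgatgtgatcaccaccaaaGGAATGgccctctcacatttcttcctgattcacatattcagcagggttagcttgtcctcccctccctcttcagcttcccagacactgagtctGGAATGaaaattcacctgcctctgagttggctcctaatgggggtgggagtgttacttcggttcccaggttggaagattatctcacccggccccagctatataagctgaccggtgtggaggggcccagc
TGFB2, chr1:218345086-218345335, plus strand: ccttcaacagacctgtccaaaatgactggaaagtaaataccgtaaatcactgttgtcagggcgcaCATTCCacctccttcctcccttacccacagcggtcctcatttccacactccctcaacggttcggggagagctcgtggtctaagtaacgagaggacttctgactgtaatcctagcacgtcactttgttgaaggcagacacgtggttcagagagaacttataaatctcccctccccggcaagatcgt

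CTGF held 3 cores, at 169 to 164, 104 to 99 and 95 to 90 bases before the start. ANKRD1 held 2 and TGFB2 held 1, and AXL and AMOTL2 each held 1 before the other of their annotated starts. Of all 35116 promoters in the same table, 11.89% held at least 1 core, 0.9397% at least 2 and 0.08258% at least 3. CCDC80, MYOF and F3 had no core in these windows. The AP-1 motif TGANTCA was matched in ANKRD1 (1 match) and F3 (2 matches) and in 6.573% of all promoters. A match describes the letters only and is not evidence of binding.

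Library totals ran from 13572114 to 21881726 reads counted to genes. Levels below are in CPM, gene counts divided by library size after scaling with edgeR's TMM factors, and 3 reads corresponded to 0.137 to 0.221 CPM, far below every value of the 10 genes (244 to 14180 reads). Clone 2 and replicate 1 of clone 6 differed little more than sampling noise allows, with a median chi-square over genes of 1.52 times its expectation, whereas the 2 wild-type libraries gave 4.34 and the 2 clone 6 libraries 14.2. The clone 2 library therefore resembled clone 6 replicate 1 more than the 2 clone 6 libraries resembled each other, which goes against their labels. The labels were kept as given, whether 1 of them is wrong was not tested, and every value given for clone 2 or clone 6 alone depends on them. Results are given below with and without single libraries. GFAP, the classical astrocyte filament, was at 0.313 to 0.613 CPM, AQP4 had 0 reads in every library and S100B had 1 read in all 5 together, so these markers of mature astrocytes were at or near 0. ALDH1L1 and SLC1A2 were also low, at most 0.330 and 0.385 CPM. Of the same list, SLC1A3 was at 6.90 to 9.88 CPM and SOX9 at 4.50 to 8.31 CPM, and neither was called. GJA1, the astrocyte gap junction protein, was at 168 and 156 CPM in wild type and at 352 to 452 CPM in the edited libraries, and it rose (log2 fold change 1.26, adjusted p = 0.0022). The 10 fibroblast and pericyte markers, mostly COL1A1 by level, summed to 1967 and 2178 CPM in wild type, to 1872 and 1912 CPM in clone 2 and clone 6 replicate 1 and to 690.3 CPM in clone 6 replicate 2. Of the 8 tested, 1 rose, RGS5 (3.06), and 3 fell, PDGFRB (-1.25), KCNJ8 (-5.28) and ABCC9, the last from 9.43 and 14.5 CPM to at most 0.125 CPM. The endothelial receptor TIE1 fell (-3.97), the neuronal genes INA (3.05) and GAD1 (1.29) rose, and the oligodendrocyte gene MBP fell (-1.92). MOG, OLIG2 and the microglial CX3CR1 had 0 reads. The neuronal SNAP25 (0.165, adjusted p = 0.787), the endothelial VWF (0.62, adjusted p = 0.411) and the microglial CSF1R (-1.002, adjusted p = 0.0925) were not called. The neuronal RBFOX3 and SYT1 and the endothelial CDH5, CLDN5 and KDR had too few reads to be tested. SYT1 had 7 and 4 reads in wild type and 2, 1 and 0 in the edited libraries. The part of these markers in the results below was not tested. In bulk RNA, fewer cells that express a gene and less RNA per cell cannot be told apart.

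In edited against wild-type cells, 4 of the 10 targets rose and none fell by edgeR's quasi-likelihood test with Benjamini-Hochberg adjustment over 16471 genes at 0.05. The 4 were ANKRD1, CCDC80, MYOF and TGFB2. Of all genes tested, 17.1% were called, 7.64% higher and 9.49% lower. For 8 of the 10 targets every edited library lay above both wild-type libraries, and for none did every one lie below, the exceptions being AXL and F3, whose groups overlapped. Over all genes the groups did not overlap for 51.5%, with the edited libraries above for 26.1% and below for 25.3%. The median fitted log2 fold change was 0.85 over the 10 targets and 0.02 over all genes, and it was above 0 for 9 of 10 targets and for 52.4% of all genes. Library by library, the median log2 difference of the 10 targets from the wild-type mean was 0.79 for the clone 2 library, and for clone 6 it was 0.66 (replicate 1) and 0.88 (replicate 2).

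**Figure D1:**
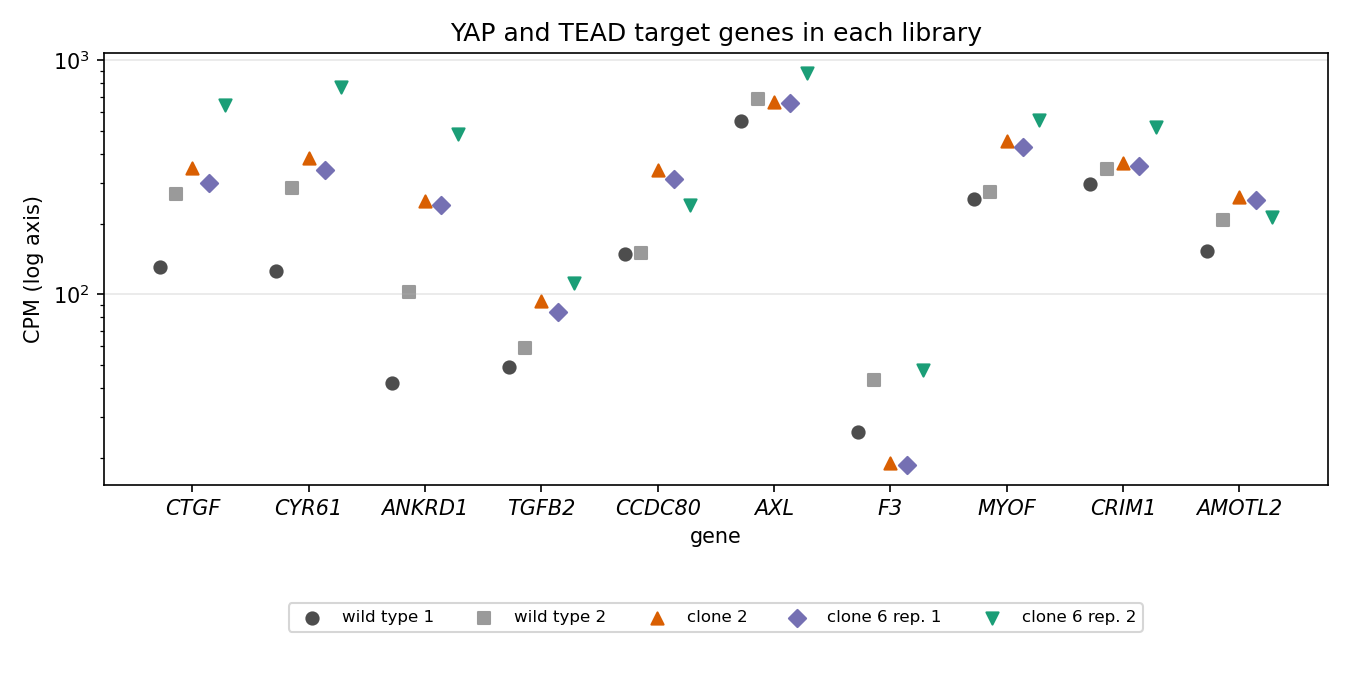
CPM on a log axis for each of the 10 target genes in the 5 libraries, with 1 marker shape and colour per library. ANKRD1 runs from 41.8 and 102 CPM in wild type to 240.3 to 483 CPM in the edited libraries, whereas the points of AXL and F3 overlap between the groups.

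ANKRD1 (ENSG00000148677, chromosome 10), an ankyrin-repeat cofactor of the nucleus and sarcomere whose promoter is the second one shown above, had the largest difference of the 10. It was at 41.8 and 102 CPM in the wild-type libraries, and the edited values were 252 CPM (clone 2), 240.3 CPM and 483 CPM (clone 6, replicates 1 and 2). All 3 edited libraries were above both wild-type libraries, and the spread within each genotype was wide, with means of 71.9 ± 42.6 CPM (SD, n = 2) and 325 ± 137 CPM (SD, n = 3). The fitted rise was 4.53-fold (log2 fold change 2.18, SE 0.47, 95% interval 1.06 to 3.30, adjusted p = 0.0234). Without wild-type replicate 1 the value was 1.67 and the call was lost. Without clone 6 replicate 2 the value was 1.77 and stayed called (adjusted p = 0.000973), in a setting where 36.9% of all genes were called. The edited libraries then left, clone 2 and clone 6 replicate 1, differed little more than sampling noise allows, so calls in that setting are weak evidence. Without wild-type replicate 2 it was larger, 2.96 (adjusted p = 0.0480).

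CTGF (ENSG00000118523, chromosome 6) and CYR61 (ENSG00000142871, chromosome 1) encode secreted CCN matrix proteins that bind integrins, and they are the most used readouts of YAP. CTGF was at 131 and 269.6 CPM in wild type, and the edited values were 346 CPM (clone 2), 299.6 CPM and 646 CPM (clone 6, replicates 1 and 2). CYR61 followed the same order, at 126 and 286 CPM in wild type, and the edited values were 382 CPM (clone 2), 341 CPM and 767 CPM (clone 6, replicates 1 and 2). For both genes every edited library was above both wild-type libraries, but the distance from wild-type replicate 2 to clone 6 replicate 1 was small beside the distance between the wild-type libraries themselves. The fitted log2 fold changes were 1.11 for CTGF (SE 0.42, 95% interval 0.12 to 2.10, adjusted p = 0.117) and 1.27 for CYR61 (SE 0.46, 95% interval 0.18 to 2.36, adjusted p = 0.107), and neither passed the threshold. Without clone 6 replicate 2, CYR61 was called at a smaller value of 0.80 (adjusted p = 0.0411), and CTGF was at 0.68 (adjusted p = 0.0516). In that setting 36.9% of all genes were called. Without wild-type replicate 1 the values were 0.67 for CTGF (adjusted p = 0.486) and 0.79 for CYR61 (adjusted p = 0.447), and without wild-type replicate 2 they were 1.72 (adjusted p = 0.131) and 1.98 (adjusted p = 0.119). CTGF overlaps an antisense gene, AL133346.1, which had 3 reads in all libraries together. Antisense overlaps were also small for CRIM1 (AC007378.1, 12 reads) and AXL (AC011510.1, 109 reads).

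TGFB2 (ENSG00000092969, chromosome 1), a secreted ligand of the TGF-beta receptors, was at 49.1 and 59.0 CPM in wild type, and the edited values were 93.7 CPM (clone 2), 83.9 CPM and 112 CPM (clone 6, replicates 1 and 2). The groups did not overlap, and TGFB2 rose 1.79-fold (log2 fold change 0.84, SE 0.15, 95% interval 0.48 to 1.20, adjusted p = 0.0132). TGFB2-OT1, a non-coding gene on the same strand, overlaps 1371 bases or 26.6% of the exons of TGFB2 in GENCODE 29 and was matched to no row with counts, so how reads there were assigned is not known. CCDC80 (ENSG00000091986, chromosome 3), a secreted protein of the extracellular matrix, had the closest wild-type libraries of all 10 genes, at 149.6 and 151 CPM. The edited values were 341 CPM (clone 2), 311 CPM and 240.4 CPM (clone 6, replicates 1 and 2), so that here clone 6 replicate 2 was the lowest edited library and not the highest. CCDC80 rose 1.98-fold (log2 fold change 0.99, SE 0.16, 95% interval 0.62 to 1.35, adjusted p = 0.00808). With either wild-type library left out, both genes kept their direction and lost the call, at log2 fold changes of 0.71 (adjusted p = 0.140) and 0.98 (adjusted p = 0.0689) for TGFB2 and of 0.98 (adjusted p = 0.0992) and 0.99 (adjusted p = 0.0852) for CCDC80 without replicate 1 and replicate 2.

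MYOF (ENSG00000138119, chromosome 10), a ferlin that takes part in membrane fusion and repair, was at 255 and 275 CPM in wild type, and the edited values were 455 CPM (clone 2), 425 CPM and 559 CPM (clone 6, replicates 1 and 2). The edited libraries stood clear of a narrow wild-type pair, and MYOF rose 1.81-fold (log2 fold change 0.86, SE 0.14, 95% interval 0.53 to 1.18, adjusted p = 0.00829). Its call was lost without wild-type replicate 1 (0.80, adjusted p = 0.105) or replicate 2 (0.91, adjusted p = 0.0739). CRIM1 (ENSG00000150938, chromosome 2), a membrane protein that binds bone morphogenetic proteins, was at 298 and 343 CPM in wild type, and the edited values were 366 CPM (clone 2), 355 CPM and 521 CPM (clone 6, replicates 1 and 2). Its groups did not overlap, but only clone 6 replicate 2 was far above wild type, and the fitted log2 fold change of 0.37 (SE 0.18, 95% interval -0.07 to 0.80, adjusted p = 0.216) did not pass.

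AMOTL2 (ENSG00000114019, chromosome 3), an angiomotin that binds and restrains YAP and so closes a feedback loop, was at 153 and 209 CPM in wild type, and the edited values were 261 CPM (clone 2), 254 CPM and 214 CPM (clone 6, replicates 1 and 2). Clone 6 replicate 2 lay just above the higher wild-type library, and the log2 fold change of 0.43 (SE 0.16, 95% interval 0.05 to 0.80, adjusted p = 0.111) did not pass. Without clone 6 replicate 2 AMOTL2 was called, at 0.50 (adjusted p = 0.00717), as were 36.9% of all genes.

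AXL and F3 are the cell-surface receptors of the set. AXL (ENSG00000167601, chromosome 19), a receptor tyrosine kinase, was at 553 and 682 CPM in wild type, and the edited values were 662 CPM (clone 2), 659.5 CPM and 887 CPM (clone 6, replicates 1 and 2). Clone 2 and clone 6 replicate 1 lay between the wild-type libraries, and the log2 fold change was 0.25 (SE 0.17, 95% interval -0.14 to 0.65, adjusted p = 0.335). F3 (ENSG00000117525, chromosome 1), tissue factor, the starter of coagulation, was at 25.9 and 42.9 CPM in wild type, and the edited values were 19.0 CPM (clone 2), 18.7 CPM and 47.8 CPM (clone 6, replicates 1 and 2). It was the only one of the 10 with a value below 0, -0.27 (SE 0.44, 95% interval -1.32 to 0.78, adjusted p = 0.717), since 2 edited libraries were below and 1 above both wild-type libraries. Without clone 6 replicate 2 F3 was called lower, at -0.88 (adjusted p = 0.00614), in a setting where 36.9% of all genes were called. Without wild-type replicate 2 the sign of F3 turned, to 0.14.

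**Figure D2:**
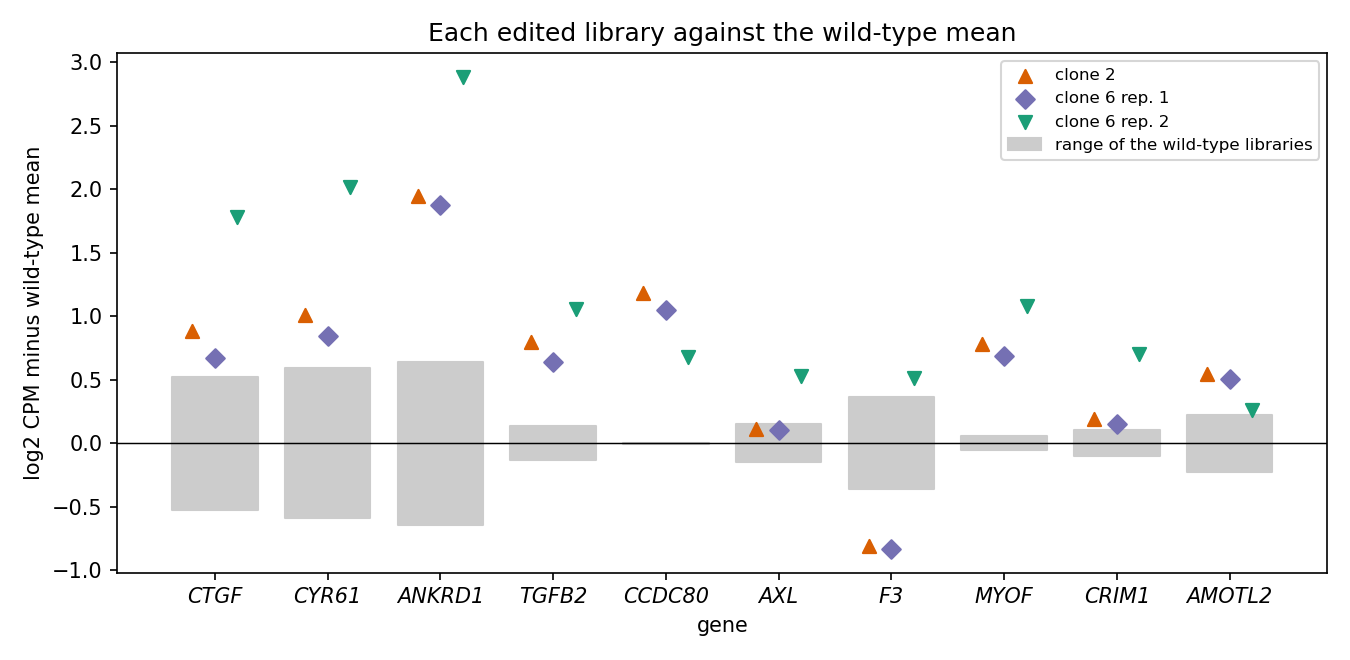
Log2 CPM of clone 2 and of both clone 6 libraries minus the wild-type mean, for the 10 target genes, with a grey band for the range of the 2 wild-type libraries. Clone 2 and clone 6 replicate 1 lie close together for every gene, clone 6 replicate 2 is the highest point except for CCDC80 and AMOTL2, and points fall inside the grey band only for AXL.

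The clones were then set against wild type one at a time, in a fit of the 3 labelled groups in which clone 2, with 1 library, is assumed to vary like the other groups. Both contrasts share the same wild-type libraries. In clone 6, 4 of the 10 targets rose, again ANKRD1 (log2 fold change 2.33, adjusted p = 0.0341), MYOF (0.89, adjusted p = 0.0251), CCDC80 (0.88, adjusted p = 0.0230) and TGFB2 (0.86, adjusted p = 0.0365), and none fell, while 8.98% of all genes were called, 3.87% higher and 5.11% lower. In clone 2, CCDC80 rose (1.18, adjusted p = 0.0252) and the other 9 did not pass, while 3.81% of all genes were called, 1.65% higher and 2.16% lower. These counts turn on single libraries: without wild-type replicate 1 no target was called in either clone, and without wild-type replicate 2 only ANKRD1 was called in each. With either wild-type library left out, calls over all genes also became fewer in both clones, so the loss was not particular to the targets. Without clone 6 replicate 1, 8 targets were called in clone 6, CTGF (1.69, adjusted p = 0.0037), CYR61 (1.90, adjusted p = 0.00358), AXL and CRIM1 being added, and 4 in clone 2, while the share of all genes called was 31.3% and 19.2%. Without clone 6 replicate 2, 6 targets were called in each clone, F3 being lower in both, and the share of all genes was 21.3% in clone 6 and 21.7% in clone 2. The other genes called in clone 6 had clone 2 values of 1.81 for ANKRD1 (adjusted p = 0.137), 0.79 for TGFB2 (adjusted p = 0.110) and 0.78 for MYOF (adjusted p = 0.0914).

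Tested directly, clone 6 against clone 2 gave 0 calls among the 10 targets and 0 among all genes, or 0% of those tested. In that contrast 114 genes had an unadjusted p under 0.05, none of them a target, and DESeq2 called 2 genes. The values for the targets ran from -0.31 for CCDC80 to 0.81 for F3. Without clone 6 replicate 1, so that each clone had 1 library, CCDC80 was called lower in clone 6 (-0.50, adjusted p = 0.0428), F3 was called higher (1.33, adjusted p = 0.0398) and 872 genes were called in all. With all 5 libraries no difference between the clones was therefore shown for these targets, nor are the clones shown to be alike.

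CTGF, CYR61 and ANKRD1 differed widely between libraries of the same group. Replicate 2 exceeded replicate 1 of wild type by a ratio of 2.06 for CTGF, 2.27 for CYR61 and 2.44 for ANKRD1. A log2 gap at least as large was found in 2.80% of all tested genes for CTGF, in 1.87% for CYR61 and in 1.33% for ANKRD1. In clone 6 the ratio of replicate 2 over replicate 1 was 2.15 for CTGF, 2.25 for CYR61 and 2.01 for ANKRD1, and F3 had the widest, 2.55. Log2 gaps at least as large were more common there, in 8.01% of tested genes for CTGF, 7.05% for CYR61 and 9.71% for ANKRD1, and in 4.66% for F3. CCDC80 differed least in wild type, by 0.01 on the log2 scale, and 95.6% of genes had a gap at least as large. All 10 targets were higher in wild-type replicate 2 than in replicate 1, with a median log2 gap of 0.37, and 8 of 10 were higher in clone 6 replicate 2, with a median of 0.49. Over all tested genes 50.13% were higher in wild-type replicate 2, with a median of 0.0011. In clone 6 replicate 2 the share was 50.03%, with a median of 0.00016. These shares are also the background for the AP-1 counts that follow. Of 8 AP-1 genes, 7 were higher in wild-type replicate 2 than in replicate 1, with ratios from 0.962 (FOSL2) to 5.74 (FOS), and 8 were higher in clone 6 replicate 2, with ratios from 1.03 (JUNB) to 5.32 (ATF3). Among the largest, with the immediate-early gene EGR1 added, the ratio of wild-type replicate 2 over replicate 1 was 5.74 for FOS, 5.52 for FOSB, 4.68 for ATF3 and 2.21 for EGR1. The matching ratios in clone 6 were 2.19 for FOS, 3.60 for FOSB, 5.32 for ATF3 and 1.77 for EGR1. The 8 AP-1 genes listed summed to 524 and 884 CPM in wild type, and the edited sums were 468 CPM (clone 2), 496 CPM and 657 CPM (clone 6, replicates 1 and 2). Their part in the differences between replicates was not tested.

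**Figure D3:**
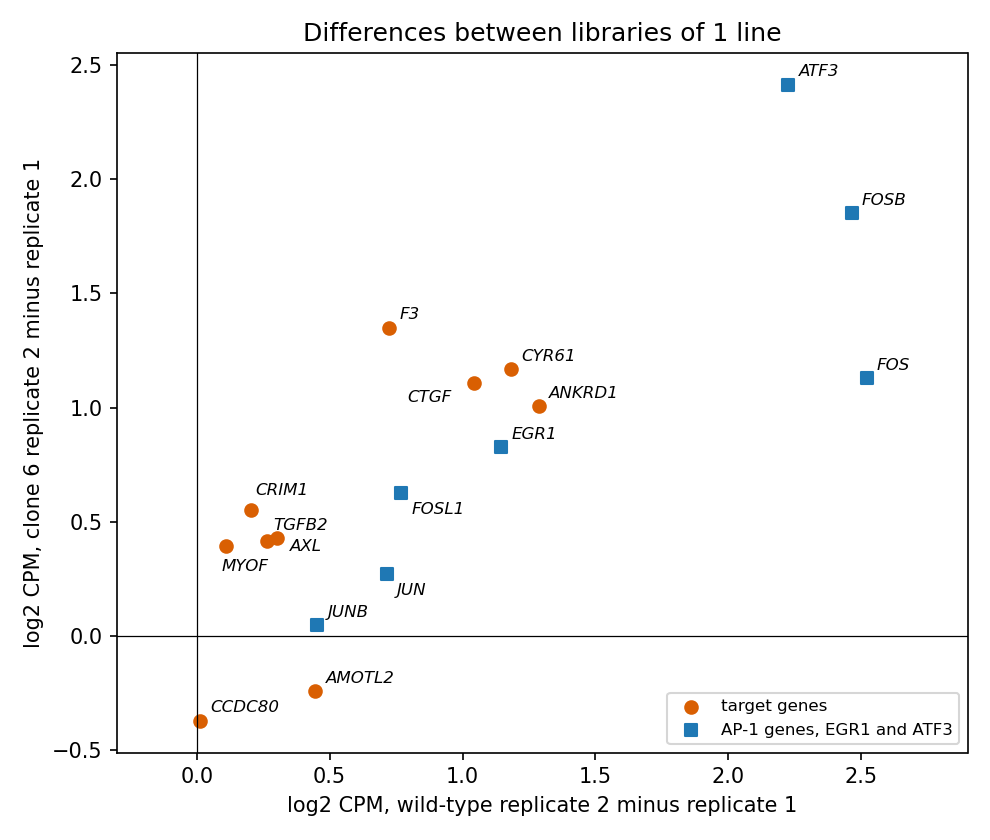
Log2 CPM gap of replicate 2 over replicate 1, wild type on the horizontal and clone 6 on the vertical axis, each point being 1 gene. Orange circles are the 10 target genes and blue squares are FOS, FOSB, ATF3, JUN, JUNB, FOSL1 and EGR1. Of the 8 AP-1 genes, JUND and FOSL2 are not drawn, and FOSL2 was the one lower in wild-type replicate 2 (ratio 0.962). CTGF, CYR61 and ANKRD1 lie above 1 on both axes, and CCDC80 and AMOTL2 lie below 0 in clone 6.

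Levels of different genes were compared as CPM per kilobase of exon, with lengths from the GENCODE 29 annotation joined by identifier. In the mean of the wild-type libraries the order was AXL (119.8), CTGF (85.6), CYR61 (83.8), CRIM1 (45.0), ANKRD1 (36.3), MYOF (31.2), AMOTL2 (30.2), F3 (12), CCDC80 (11.5) and TGFB2 (10.5). The wild-type ranges of neighbours overlapped for AXL and CTGF, for CTGF and CYR61, for CRIM1 and ANKRD1, for ANKRD1 and MYOF, for MYOF and AMOTL2 and among F3, CCDC80 and TGFB2, so their order is not resolved. In the edited mean CYR61 (202), CTGF (184) and ANKRD1 (164) stood above AXL (143), followed by CRIM1 (58.1), MYOF (56.6), AMOTL2 (40.6), CCDC80 (22.8), TGFB2 (18.8) and F3 (9.91). In clone 2 and clone 6 replicate 1, however, ANKRD1 (127 and 121) was below AXL (129 and 128). CTGF was level with AXL in clone 6 replicate 1 (128 for both). Where CTGF and ANKRD1 stand against AXL in edited cells is therefore not resolved. The order of CRIM1 and MYOF and that of CCDC80 and TGFB2 also differed between edited libraries.

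The same test was applied to 19 other genes commonly named as YAP and TEAD targets, of which 18 had enough reads. One rose, AJUBA, a LIM protein that inhibits the Hippo kinases (0.72, adjusted p = 0.0193), and its call was lost without wild-type replicate 1, clone 2 or clone 6 replicate 1. FOXF2, a forkhead transcription factor, fell (-0.74, adjusted p = 0.0166) and lost its call without either wild-type library or clone 2. The other 16 did not pass, and the median over the 18 was 0.02, against 0.85 over the 10 targets and 0.02 over all genes. Calls among these 18 were thus 1 higher and 1 lower, while 17.1% of all genes were called, 7.64% higher and 9.49% lower. So few calls are not read as a result about this list.

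**Figure D4:**
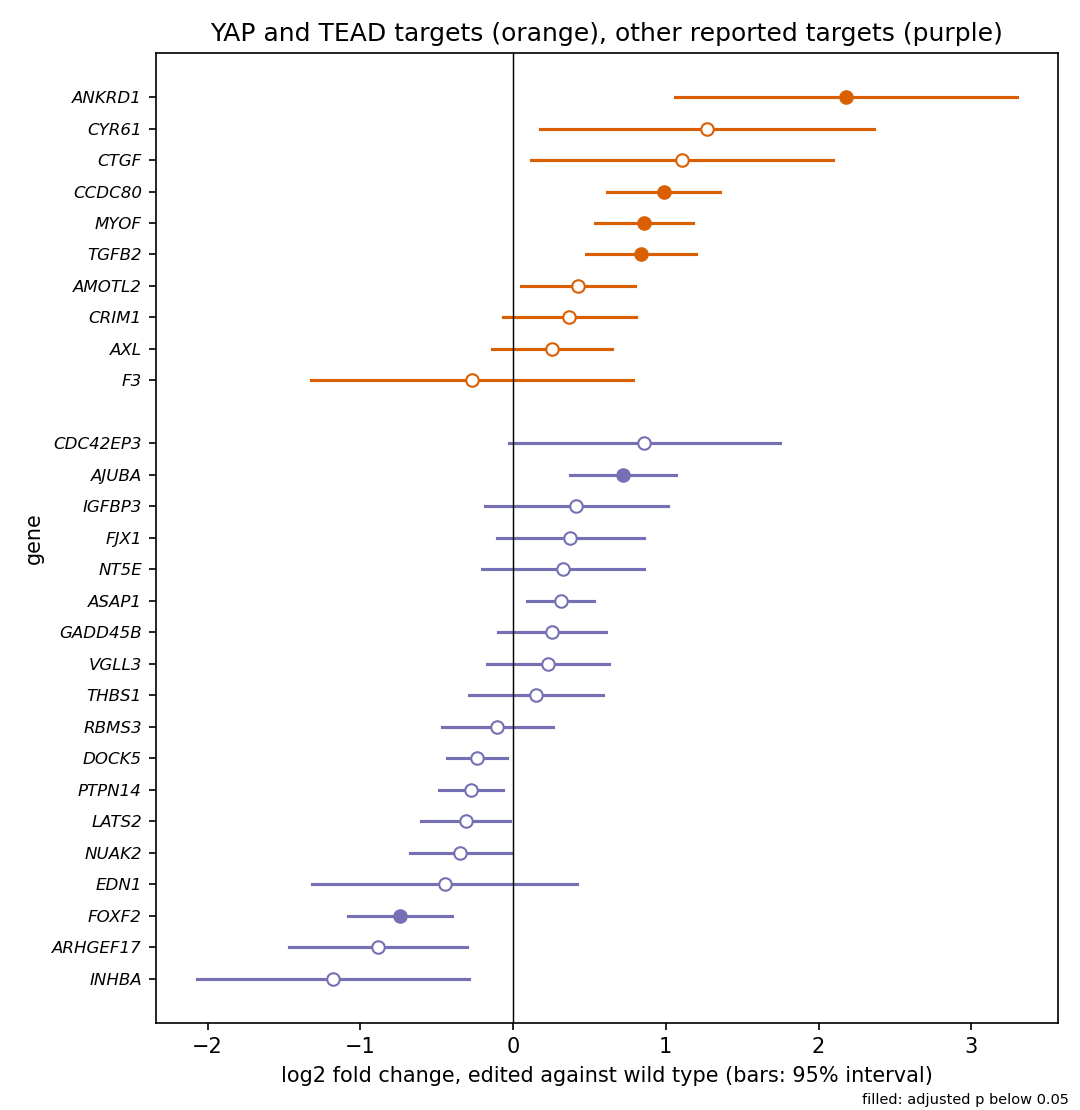
Fitted log2 fold change of edited against wild-type libraries with its 95% interval as a bar, for the 10 target genes (orange) and the 18 tested other targets (purple), filled where the adjusted p is below 0.05. Filled points are ANKRD1, CCDC80, MYOF and TGFB2 above, and AJUBA and FOXF2 below.

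Among the effectors, YAP1 itself fell, at 136 and 120.4 CPM in wild type, and the edited values were 55.6 CPM (clone 2), 56.0 CPM and 72.6 CPM (clone 6, replicates 1 and 2) (log2 fold change -1.06, adjusted p = 0.00462). All edited libraries were below both wild-type libraries, and the call was lost without wild-type replicate 1 (-0.97, adjusted p = 0.0650). TEAD1 rose by a small amount (0.34, adjusted p = 0.0483), a call lost without any 1 of wild-type replicate 1, wild-type replicate 2, clone 2 or clone 6 replicate 1. WWTR1, which encodes TAZ, had a value of 0.41 and did not pass (adjusted p = 0.181), and TEAD2, TEAD3 and TEAD4 did not pass either. Of 19 Hippo kinases and regulators, 2 rose, the cadherin FAT4 (1.29) and the kinase scaffold SAV1 (0.63), and 3 fell, AMOT (-5.63), WWC2 (-0.73) and WWC1 (-0.45). Over all genes 7.64% were called higher and 9.49% lower. With libraries left out in turn for all of these but WWC1, the calls of SAV1 and WWC2 were lost without either wild-type library, and that of WWC2 also without clone 2 or clone 6 replicate 1. AMOT, the founding angiomotin and a relative of AMOTL2, had 241 and 172 reads in wild type and 3, 1 and 5 reads in clone 2 and the clone 6 libraries.

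Partners of single targets were counted in the same way, beside shares over all genes of 17.1% called, 7.64% higher and 9.49% lower. Of 15 genes of the TGF-beta system around TGFB2, 2 rose (LTBP1 and TGFBR3) and 5 fell (ENG, LTBP3, SKIL, SMAD3 and TGFBR2), and ENG, a co-receptor, had the largest fall (-2.74). For ENG, LTBP3, LTBP1 and SKIL libraries were left out in turn: without wild-type replicate 1 the calls of LTBP3 and SKIL were lost, and without wild-type replicate 2 those of LTBP1 and SKIL. The other CCN family members listed, NOV, WISP1, WISP2 and WISP3, had too few reads to be tested. The 7 tested genes of that list were those of integrins that bind CTGF and CYR61 and the receptors LRP1 and LRP6. None rose and 2 fell, ITGA6 (-0.89), a call lost without wild-type replicate 2, and ITGAV (-0.62), a call lost without wild-type replicate 1. Of 6 tested partners of tissue factor, the product of F3, 2 fell, the protease-activated receptors F2RL1 (-1.92) and F2R (-1.18). Of the other ferlins related to MYOF, 2 were tested and both rose, FER1L5 (1.55) and DYSF (0.84), and both calls were lost without wild-type replicate 1, that of FER1L5 also without wild-type replicate 2.

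Only ANKRD1 passed the test with a fitted change of at least 1 on the log2 scale, and the genes with the most similar profile were sought for it. Likeness was the Euclidean distance between centred log2 CPM profiles over the 5 libraries and 11205 genes. FST, follistatin, which binds activin, was nearest (distance 0.64), at 12.6 and 19.2 CPM in wild type, and the edited values were 52.6 CPM (clone 2), 48.6 CPM and 81.4 CPM (clone 6, replicates 1 and 2). LONRF3 (0.72) and RP11-152P17.2 (0.76) were next. Among the 10 targets themselves the closest profiles were those of TGFB2 and MYOF (0.12), AXL and CRIM1 (0.16) and CTGF and CYR61 (0.23).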

How the data were processed

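RNA-seq of 5 libraries was used. The deposited values are raw counts of reads per gene, 1 table per library, identified by Ensembl identifier and symbol. Per the submitters' processing notes, Trimmomatic, STAR and HTSeq were used with hg19/GRCh37; for their versions, the annotation release and the strand setting, the sources used here give nothing. Of 63677 listed genes, 5772 have an empty value and were left out. The 10 targets and all gene lists were chosen with earlier results of these data known.

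Counts were fitted with edgeR 4.0.16 in R 4.3.3 (TMM, filterByExpr on the 3 labelled groups, quasi-likelihood test, Benjamini-Hochberg adjustment over all tested genes, threshold 0.05). Edited against wild type was 1 fit of 2 against 3 libraries with 3 residual degrees of freedom, and the clone contrasts were a fit of 3 groups with 2. Standard errors are the log2 fold change over the square root of F, and intervals use 95%. The fits were tested on simulated counts. Genes named were the 10 targets, YAP1, WWTR1 and TEAD1 to TEAD4, up to 6 called genes per direction of the other targets, up to 4 called genes of each other list, and the 3 genes nearest in profile to a target called with a log2 fold change of at least 1. FOS, FOSB, ATF3, EGR1, WWC1, TGFBR3, SMAD3 and TGFBR2 were named after their values were seen. Cell type markers and some uncalled or untested members of the lists are also named. From the gene lists 2 genes are not reported here, and the counts and medians of lists leave them out. Alternatives were DESeq2 1.42.0, upper-quartile scaling, no filter or 1 CPM in 2 libraries, ribosomal RNA left out or as a covariate, clone 2 summed with clone 6 replicate 1, a replicate block and each library left out. Ribosomal RNA made up 0.417% to 9.79% of counts. Without strand, reads of overlapping antisense genes cannot be told apart.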

Additional observations from a re-analysis of the deposited data

How the results depend on the processing

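No alternative was added beyond the planned ones, and the cause of each shift below was not tested. Edited against wild type, 2822 genes and 4 of the 10 targets were called. Without a filter these became 4274 genes and 8 targets, and with clone 2 and clone 6 replicate 1 summed into 1 library 1528 genes and 4 targets. The replicate block, which pairs libraries by number although the numbers are not known to mark shared cultures (correlation of deviations 0.24 over 2 pairs), gave 4499 genes and 8 targets, adding CTGF (1.29, adjusted p = 0.000271), CYR61 (1.48, adjusted p = 0.000135), CRIM1 and AXL. Leaving out 1 library at a time gave 500 to 5971 genes and 0 to 7 targets: without wild-type replicate 1 500 genes and 0 targets, without wild-type replicate 2 697 and 1, and without clone 6 replicate 2 5971 and 7. For clone 6 against wild type (1479 genes, 4 targets), no filter gave 3144 and 7, the block 2569 genes, and leaving out 1 library 329 to 5119 genes and 0 to 8 targets. For clone 2 against wild type (628 genes, 1 target), no filter gave 1878 and 7, the block 1115 and 6, DESeq2 2 targets, and leaving out 1 library 175 to 3510 genes and 0 to 6 targets. For clone 6 against clone 2 (0 and 0), no filter gave 99 genes, DESeq2 2 genes, and leaving out 1 library 0 to 872 genes and 0 to 2 targets. Groups left with 1 library are assumed to vary like the others. The summed libraries and the covariate were run for edited against wild type only.

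Values whose sign turned are given with their range over the libraries left out. F3 ran from -0.88 to 0.14 (without wild-type replicate 2) for edited and from -0.89 to 0.48 (without clone 6 replicate 1; 0.36 without wild-type replicate 2) for clone 6 against wild type. AXL in clone 2 ran from -0.043 (without wild-type replicate 1) to 0.26. For clone 6 against clone 2, the lowest value came without clone 6 replicate 2 and the highest without clone 6 replicate 1: CTGF -0.21 to 0.90, CYR61 -0.16 to 1.01, ANKRD1 -0.070 to 0.94, TGFB2 -0.16 to 0.26, AXL -0.0088 to 0.42, F3 -0.024 to 1.33, MYOF -0.099 to 0.30 and CRIM1 -0.045 to 0.51. The replicate block turned CTGF (-0.19), CYR61 (-0.16), ANKRD1 (-0.13), TGFB2 (-0.12) and MYOF (-0.024) in that contrast, in which no target was called with all libraries.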

Other observations

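SRF and its MRTF cofactors (genes MKL1 and MKL2) share cytoskeletal genes with YAP. Of 11 tested genes, these factors and their targets together, none rose and 4 fell in edited against wild-type cells. The shares over all genes, for this list and those below, were 7.64% called higher and 9.49% lower. The 4 were all targets, TAGLN (-1.92), ACTA2 (-1.44), TPM1 (-0.61) and TPM2 (-0.33) on the log2 scale, and SRF, MKL1 and MKL2 were not called. ACTA2 was low, with 30 and 24 reads in wild type and 10, 7 and 5 in the edited libraries. The uncalled targets were EGR1 (-0.42) and, with values above 0, CNN1 (0.97), FHL2 (0.75) and VCL (0.25). TAGLN kept its call with each library left out, and the calls of ACTA2, TPM1 and TPM2 were lost without wild-type replicate 1, wild-type replicate 2 or clone 6 replicate 1, and those of ACTA2 and TPM2 also without clone 2 and when the share of ribosomal RNA entered the model. ACTA2 was not called by DESeq2 (adjusted p = 0.0785). Of 8 AP-1 genes, none rose and 2 fell, JUNB (-1.26) and FOSL2 (-0.35), with a median of -0.46. JUNB lost its call without wild-type replicate 2, and FOSL2 without either wild-type library, clone 2 or clone 6 replicate 1. None of the 4 tested TAM receptors and ligands other than AXL, and none of the 3 tested partners and relatives of ANKRD1, passed the test.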
